A study of Mus musculus with 55 samples.

Results

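The respiratory chain subunits described here are 47 listed nuclear-encoded genes of the mitochondrial electron transport chain: 32 of complex I, 4 of complex II, 5 of complex III and 6 of complex IV. All 47 were found by gene symbol among the 47937 counted genes of the bulk islet RNA-seq table. The rule names the genes and uses no measured value, although the list was drawn up with earlier results of these data known. Ndufa4 was counted with complex IV, where its protein is now placed, although its name comes from complex I.

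Complex I takes electrons from NADH and complex II takes them from succinate. Both pass them through ubiquinone to complex III and by way of cytochrome c to complex IV, which reduces oxygen. Complexes I, III and IV pump protons, and ATP synthase uses the resulting gradient. In β cells this ATP links glucose metabolism to closure of ATP-sensitive potassium channels and to insulin release. Complex II has only nuclear subunits, whereas the other complexes also hold subunits encoded by mitochondrial DNA.

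The study deleted Eed, a core subunit of Polycomb repressive complex 2, in β cells. The 16 libraries came from whole islets of male C57B6/J mice, isolated by collagenase digestion, hand-picked and kept in culture medium. At 8 weeks of age there were 3 wild-type, 3 heterozygous and 3 βEedKO libraries, and at 25 weeks 3, 2 and 2. In βEedKO mice Eed flox/flox alleles were cut by RIP-cre, a recombinase driven by the insulin promoter, so that other islet cells keep the gene. The heterozygous animals are described in the labels by that word alone. A library held the islets of 1 or 2 animals, and each βEedKO library at 25 weeks was pooled from several animals. Because whole islets were sequenced, fewer cells of a type and less RNA per cell cannot be told apart in any result below.

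The total count was 4645393 to 22925359 per library. Eed had 23.9 to 33.1 CPM (reads scaled to a library size common to all, with edgeR's TMM factors) in the wild-type and 13.4 to 14.9 CPM in the βEedKO libraries at 8 weeks, and 19.3 to 28.3 against 14.3 and 15.6 CPM at 25 weeks. The β cell markers summed to 13870 and 17200 CPM in βEedKO at 25 weeks and to 122300 to 218500 CPM in the other libraries. The acinar markers summed to 343900 CPM in βEedKO replicate 2 at 25 weeks and to 10850 to 188100 CPM elsewhere. The interferon-induced genes summed to 3290 to 4782 CPM in wild-type replicates 3 and 4 and βEedKO replicates 4 and 5 at 8 weeks, and to 66.8 to 156.8 CPM in the other 12 libraries. Heterozygous replicate 2 at 8 weeks stood apart in fat and muscle genes, as described with its subunit levels. The part of these features in the results was not tested.

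The promoters of 4 subunits are shown first. They are the 3 complex II genes for which one was found, and Ndufa8 of complex I, which lay farthest from 0 at 8 weeks. Each window runs from 250 bases before to 50 bases after a RefSeq start site on GRCm38.p6 and is given 5′ to 3′ on the gene's own strand. Capitals mark matches to 4 motifs of factors known from housekeeping or mitochondrial promoters: NRF1 (GCGCANGCG), ETS factors (CCGGAAG), YY1 (AAGATGG) and the CCAAT box (CCAAT), each searched on both strands.
Sdha, chr13:74350191-74350490, minus strand: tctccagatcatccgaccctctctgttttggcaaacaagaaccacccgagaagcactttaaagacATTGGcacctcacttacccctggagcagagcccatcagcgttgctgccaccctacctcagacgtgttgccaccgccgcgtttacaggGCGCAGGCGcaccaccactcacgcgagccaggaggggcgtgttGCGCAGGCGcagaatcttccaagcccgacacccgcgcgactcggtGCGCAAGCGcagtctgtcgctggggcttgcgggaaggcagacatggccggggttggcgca
Sdhb, chr4:140961021-140961320, plus strand: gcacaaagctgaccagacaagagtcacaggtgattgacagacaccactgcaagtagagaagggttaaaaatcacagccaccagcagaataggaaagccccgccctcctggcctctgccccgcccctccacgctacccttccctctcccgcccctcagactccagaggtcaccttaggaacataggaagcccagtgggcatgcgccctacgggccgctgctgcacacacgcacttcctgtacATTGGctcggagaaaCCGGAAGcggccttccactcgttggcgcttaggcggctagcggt
Sdhd, chr9:50603800-50604099, minus strand: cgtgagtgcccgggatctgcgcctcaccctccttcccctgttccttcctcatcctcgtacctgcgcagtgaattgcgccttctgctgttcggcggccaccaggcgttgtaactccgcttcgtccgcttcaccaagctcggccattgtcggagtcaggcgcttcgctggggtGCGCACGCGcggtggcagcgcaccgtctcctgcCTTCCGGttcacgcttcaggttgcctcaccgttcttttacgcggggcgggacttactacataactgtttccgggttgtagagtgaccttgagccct
Ndufa8, chr2:36049289-36049588, minus strand: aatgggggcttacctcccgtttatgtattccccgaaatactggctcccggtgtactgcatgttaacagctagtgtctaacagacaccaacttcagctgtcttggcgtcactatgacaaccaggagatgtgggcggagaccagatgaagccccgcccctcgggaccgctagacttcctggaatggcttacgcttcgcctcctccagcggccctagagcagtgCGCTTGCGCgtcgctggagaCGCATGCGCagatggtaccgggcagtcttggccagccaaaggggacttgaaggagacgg

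Sdha, the flavoprotein that oxidises succinate, held 3 NRF1 matches, which began 98, 55 and 10 bases before the start site, and 1 CCAAT match on the opposite strand. Sdhd, a membrane anchor of complex II, held 1 NRF1 match and, on the opposite strand, 1 ETS match. Sdhb, the iron-sulfur subunit, held 1 ETS match and, on the opposite strand, 1 CCAAT match, and Ndufa8 held 2 NRF1 matches on the opposite strand. A window within 500 bp of the annotated start site was found for 37 of the 47 subunits. An NRF1 match was present in 11 of 37 (29.7%), against 10.1% of 13809 protein-coding promoters of the same length. The YY1 motif was present in 6 of 37 (16.2%, against 6.76%), the ETS motif in 6 (16.2%, against 13.5%) and the CCAAT box in 10 (27.0%, against 39.1%). All 6 promoters with a YY1 match belonged to complex I, which has 28 of the 37 windows. None of the 4 complex IV windows held any of the motifs as spelled here. The 13809 promoters were not limited to genes expressed in islets. A match is a description of these letters and not evidence of binding.

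In the deposited chromatin-state map of wild-type islets, most subunit genes started in one state. The map gives each 200 bp bin of the autosomes a letter, with no measured level, and combines histone marks with DNA methylation. The start site lay in state A for 29 of the 45 autosomal subunits (64.4%), against 30.2% of 20445 protein-coding genes with a state. State A marks active start sites. The protein-coding genes include those silent in islets, and the shares were not compared with expressed genes alone. State B held 7 subunits (15.6%, against 13.8%) and state C held 3 (6.67%, against 1.64%). State L, which the study describes with state M as bivalent and silenced by Polycomb, held 6 subunits (13.3%, against 12.5%): Ndufa8, Ndufa13, Ndufb4, Ndufs4, Ndufv1 and Cox6c. These 6 were expressed in wild-type islets like the other subunits, as given below. All 4 complex II genes and all 5 complex III genes started in state A. The X-linked Ndufa1 and Ndufb11 are outside the map.

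In wild-type islets at 8 weeks all 47 subunits were expressed, and at least 93 reads fell on each of them in every one of the 16 libraries. Levels are compared between genes as RPKM, the CPM divided by the kilobases of merged exons. The median over the subunits was 25.6 RPKM and the range 4.21 to 114 RPKM. By complex the median was 22.9 RPKM for I, 43.7 for II, 49.0 for III and 38.1 for IV.

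The highest level was that of Ndufb11, a membrane-arm accessory subunit of complex I encoded on the X chromosome, with 114 ± 18.5 RPKM (SD, n = 3). Sdhd followed with 102 ± 17.1 RPKM and Ndufa1, another X-linked accessory subunit of complex I, with 89.7 ± 19.8 RPKM. Cox4i1, a subunit of complex IV that is built in early, had 79.7 ± 13.5 RPKM. The highest of complex III was Uqcrb, a small subunit of the complex, with 59.5 ± 15.0 RPKM. Each of the 4 highest differed from the next by less than their SDs, whereas the 2 lowest differed by more. The lowest were Ndufb7 with 6.35 ± 0.756 RPKM and Ndufb2 with 4.21 ± 0.487 RPKM, both accessory subunits of complex I. The order depends on the length used. Per kilobase of the longest protein-coding transcript Ndufb7, whose merged exons span 4522 bp and its transcript 623 bp, had 46.1 CPM and rank 22, and Cox4i1 was highest with 162 CPM. Ndufb2 was lowest with either length. On the CPM scale Sdha had the most reads, 240 ± 18.2 CPM (SD, n = 3), and more than 97.6% of the protein-coding genes.

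Some subunits were counted less certainly than others. A stretch of at least 50 bp with at least 98% identity elsewhere in the genome was found for the transcripts of 8 subunits, and it covered over 50% of 4 of them: Uqcrb (90.5%), Ndufs3 (84.4%), Ndufs5 (64.3%) and Cox5b (64.2%). Exons of 18 subunits overlap those of another counted gene, by over 20% for Ndufb6 (39.0%, with Smim27) and Ndufa13 (30.0%, with Tssk6), both on the opposite strand. The library kit does not mark strand, so reads of such a pair cannot be told apart.

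The 47 subunits together took 2262 to 3027 CPM in wild type at 8 weeks, 2408 to 3271 CPM in βEedKO at 8 weeks, 2076 to 3036 CPM in wild type at 25 weeks and 2724 and 1985 CPM in βEedKO at 25 weeks. The sums of wild type and βEedKO overlapped at both ages. By complex they overlapped as well, except for complex II at 25 weeks, where the wild-type libraries had 511.5, 428.8 and 437.1 CPM and the βEedKO libraries 380.0 and 342.0 CPM. The heterozygous libraries of that age, with 423.6 and 404.0 CPM in complex II, also lay below all wild-type libraries. As a share of all counts with no TMM scaling, the 47 subunits took 0.300%, 0.233% and 0.191% of wild-type and 0.207% and 0.297% of βEedKO counts at 25 weeks, so that the order of the 2 βEedKO libraries turned with the scaling. For complex II the sums by library size alone were 505.0, 480.7 and 376.6 CPM in wild type and 288.5 and 511.5 CPM in βEedKO, so that βEedKO replicate 3 then lay above all wild-type libraries. The heterozygous libraries then had 473.1 and 411.9 CPM and overlapped with wild type. The TMM factor was 0.760 for βEedKO replicate 2 and 1.498 for replicate 3, and 0.836 to 1.12 for the other 14 libraries.

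**Figure D1:**
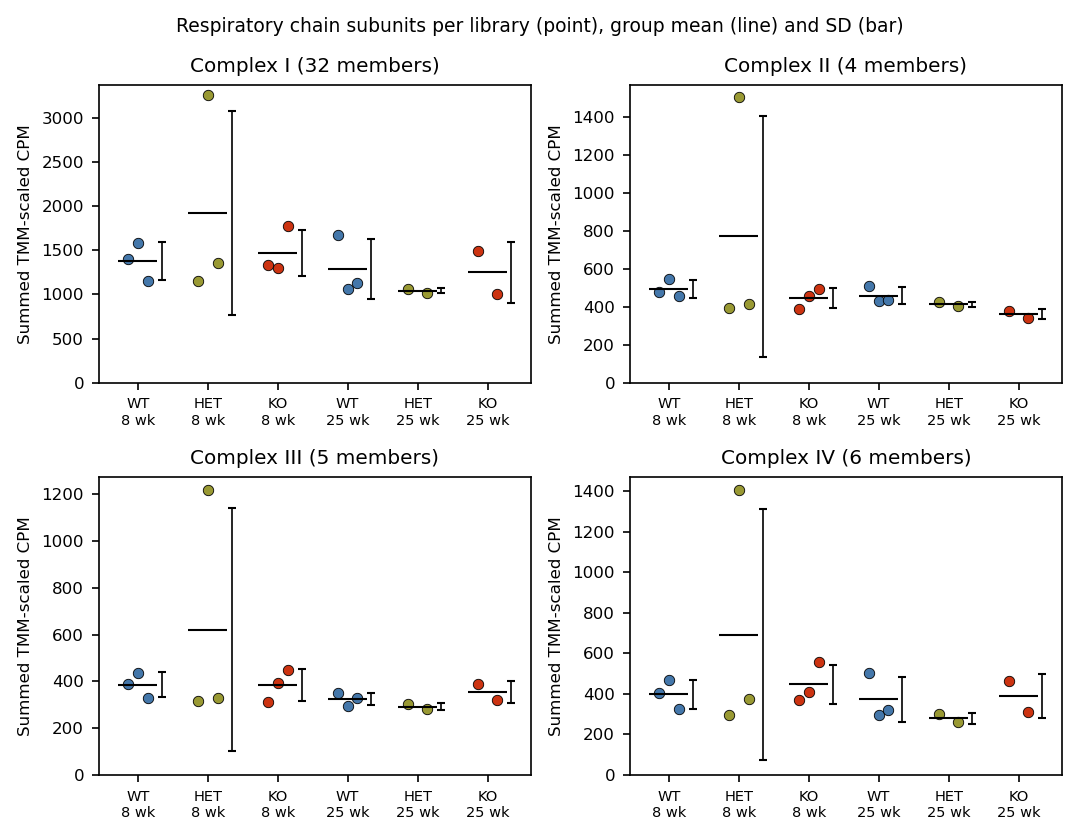
Summed TMM-scaled CPM of the subunits of each complex (y axis, from 0) in each of 16 libraries (points) by genotype and age (x axis), with the group mean (line) and SD (bar). Heterozygous replicate 2 at 8 weeks lies above all other libraries in each complex, with 1503 CPM in complex II, and the 2 βEedKO libraries at 25 weeks lie below all wild-type libraries of that age in complex II only, which does not hold by library size alone. The 2 heterozygous libraries at 25 weeks also lie below those wild-type libraries in complex II.

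The spread between replicates of a group differed between subunits. Over the 15 libraries without heterozygous replicate 2 at 8 weeks, the pooled SD within groups was smallest for Ndufs1 (0.093 on the log2 CPM scale), the largest iron-sulfur subunit of complex I, and for Sdha (0.096). It was largest for Ndufa5 (0.52), Ndufs6 (0.46) and Uqcrb (0.45). The median over the 47 subunits was 0.30, and 0.30 also over the 7319 genes at or above the mean level of the lowest subunit.

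At 8 weeks no subunit differed between βEedKO and wild type in edgeR's quasi-likelihood test with Benjamini-Hochberg adjustment over 18685 genes (0 of 47 at an adjusted p under 0.05, against 0.434% of all genes). The count was also 0 at an unadjusted p under 0.05 (7.87% of all genes) and 0 with DESeq2, which called 393 of 18685 genes. The fitted log2 fold change was above 0 for 37 subunits and below 0 for 10, with a median of 0.095 against 0.0039 over all genes. Complex II was the exception by sign: all 4 subunits had values below 0 (-0.032 to -0.18). By library size alone all 4 were above 0 (0.0028 to 0.17), as were 46 of the 47, with a median of 0.20 over all genes. The 95% interval stayed within 2-fold in either direction for 43 of the 47. The median was -0.072 without βEedKO replicate 5 and 0.22 without wild-type replicate 3.

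The values farthest from 0 at 8 weeks were positive. Ndufa8, an accessory subunit of complex I, had 27.7, 30.9 and 26.6 CPM in wild type and 27.8, 33.1 and 49.7 CPM in βEedKO, a log2 fold change of 0.38 with an SE of 0.25 (adjusted p = 0.804, edgeR). Cox5b, a zinc-binding subunit of complex IV, had 51.9, 60.6 and 44.1 CPM in wild type and 53.4, 61.5 and 87.8 CPM in βEedKO, a log2 fold change of 0.38 with an SE of 0.24 (adjusted p = 0.792, edgeR). For both genes βEedKO replicate 5 was the high library and the other libraries of the groups overlapped. Without that library they were 0.094 and 0.13. Against a control that also took in the heterozygous libraries Cox5b turned to -0.13. Reads of Cox5b, as given above, can come from copies elsewhere in the genome.

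At 25 weeks, when 6.6% of all genes were called, again 0 of 47 subunits passed in edgeR. DESeq2 called 0 subunits and 2093 of 18685 genes. Unadjusted, 2 of 47 had a p under 0.05 in edgeR, Sdhd and Sdha, against 20.3% of all genes. Of the 47 log2 fold changes 26 were below 0 and 21 above, with a median of -0.059 against 0.029 over all genes. The median was -0.35 for complex II, -0.081 for complex I, 0.011 for complex IV and 0.11 for complex III. The 95% interval stayed within 2-fold for 36 subunits, and the lowest bound of any subunit was -1.38, so that larger falls lie outside the intervals. The median of the 47 depended on single libraries: it was -0.38 without βEedKO replicate 2, the library rich in acinar genes, and 0.22 without βEedKO replicate 3.

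**Figure D2:**
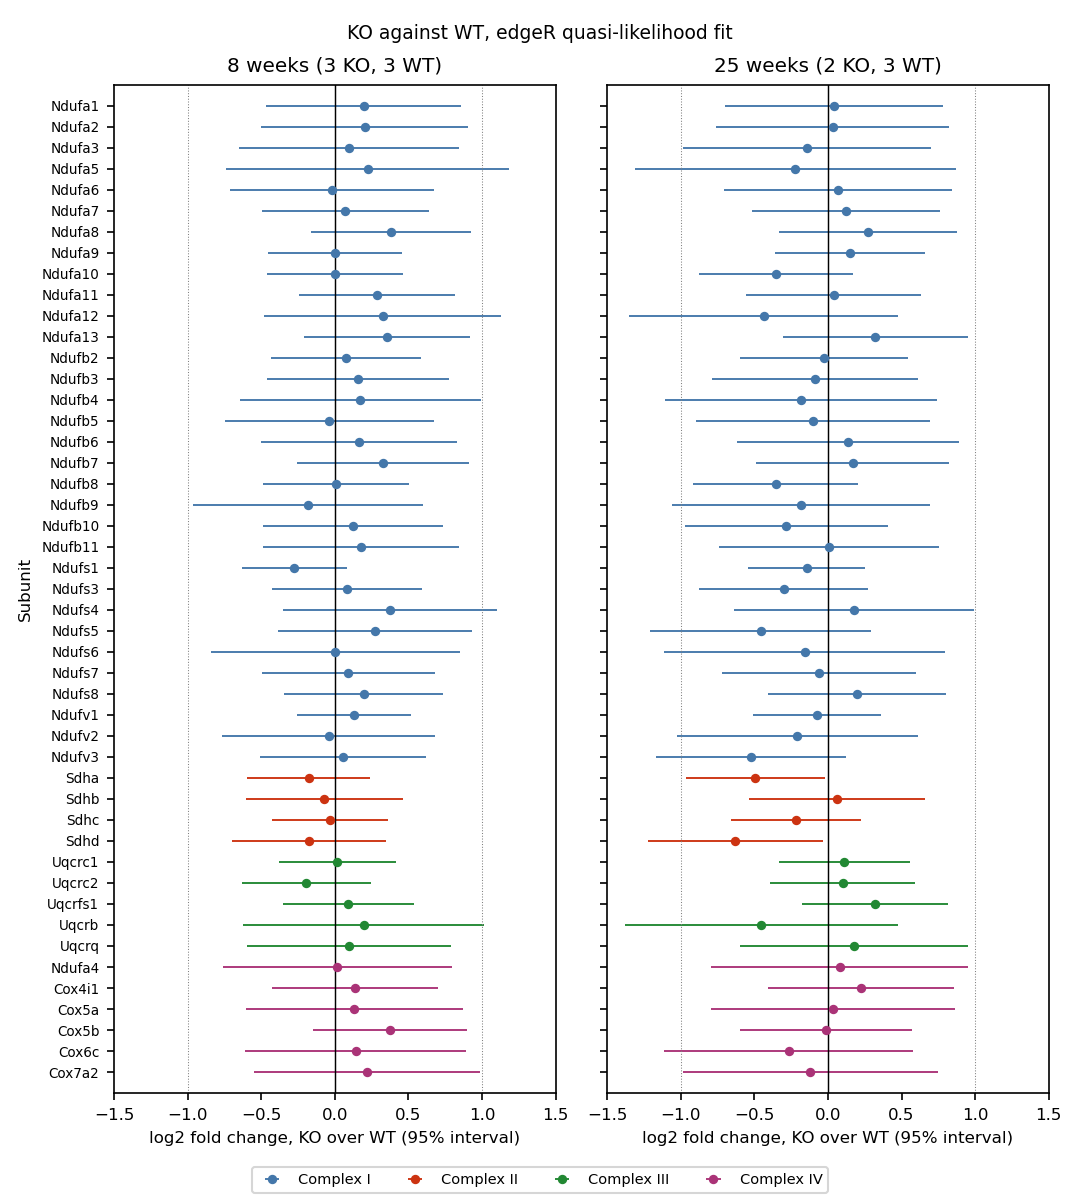
Log2 fold change of βEedKO (KO) over wild type (WT) for each of 47 subunits (rows, coloured by complex) at 8 weeks (left) and 25 weeks (right), from edgeR, with 95% intervals (bars). Dotted lines mark a 2-fold difference. At 8 weeks all intervals cross 0, and at 25 weeks those of Sdha and Sdhd alone do not, before adjustment for the number of genes.

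Complex II had the lowest median at 25 weeks, and Sdhd the lowest value of any subunit. Sdhd had 123.0, 92.1 and 88.1 CPM in wild type and 68.9 and 66.6 CPM in βEedKO, so that the groups did not overlap. Its log2 fold change was -0.63 with an SE of 0.27 and a 95% interval from -1.22 to -0.036 (adjusted p = 0.216, edgeR). Sdha had 258.1, 233.7 and 230.3 CPM in wild type and 176.1 and 179.3 CPM in βEedKO, also without overlap, a log2 fold change of -0.49 with an SE of 0.21 (adjusted p = 0.224, edgeR). On the TMM scale the 2 heterozygous libraries of that age, with 222.8 and 220.7 CPM of Sdha, were also below every wild-type library. For Sdhd they had 91.9 and 81.1 CPM and overlapped with wild type. Sdhc, the other membrane anchor, had 65.8, 54.1 and 58.0 CPM in wild type and 58.7 and 47.1 CPM in βEedKO. Sdhb had 64.5, 48.9 and 60.7 CPM in wild type against 76.2 and 49.1 CPM, and its log2 fold change was 0.061. On this scale Sdha and Sdhd stood below wild type in both βEedKO libraries, whereas Sdhb and Sdhc overlapped with it.

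This separation depended on the TMM factors. By library size alone Sdha had 254.9, 262.0 and 198.4 CPM in wild type and 133.7 and 268.1 CPM in βEedKO, and Sdhd 121.4, 103.3 and 75.9 CPM against 52.3 and 99.6 CPM, so that βEedKO replicate 3 overlapped with wild type for both. The log2 fold changes were then -0.25 and -0.40. No subunit had an unadjusted p under 0.05 at 25 weeks with library size alone, with upper-quartile factors, without the filter on low counts or with all 16 libraries in 1 fit. Such a p was found for 2 subunits with median-of-ratios factors, with TMM factors without hormone and mitochondrial genes, and with DESeq2. With a block for the replicate number it was found for 4. The share of all genes at that cut, 20.3% in the main fit, was not counted in these settings. The fat and muscle markers described below were also higher in wild-type replicates 3 and 4, with muscle sums of 74.6 and 83.0 CPM against 3.92 CPM in wild-type replicate 2 and at most 5.97 CPM in βEedKO. Wild-type replicate 2 had the highest level of both genes on the TMM scale. Without the 5 libraries with Ucp1 above 10 CPM the log2 fold changes were -0.59 for Sdha and -0.91 for Sdhd, against that 1 wild-type library (adjusted p = 0.544 and 0.408, edgeR).

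Sdha and the complex I subunit Ndufs1, which carries iron-sulfur clusters, were below every wild-type library in every βEedKO library of the same age, at both ages, on the TMM scale. These 2 genes were chosen after their values were seen. At 8 weeks Sdha had 226.5, 260.3 and 231.8 CPM in wild type and 187.8, 224.7 and 222.0 CPM in βEedKO. Ndufs1 had 69.4, 85.2 and 69.7 CPM in wild type and 61.3, 62.7 and 61.7 CPM in βEedKO at 8 weeks, and 66.9, 64.4 and 67.5 CPM against 61.6 and 62.9 CPM at 25 weeks. The differences were small, with a log2 fold change of -0.27 (SE 0.16) at 8 weeks and -0.14 (SE 0.18) at 25 weeks for Ndufs1, and they passed no test. Such a pattern, lower at both ages with no overlap, was seen in 2 of 47 subunits and in 2.22% of all genes. The reverse pattern was seen in 0 of 47 subunits and in 4.31% of all genes. With library size alone the log2 fold change turned to 0.012 for Sdha at 8 weeks and to 0.11 for Ndufs1 at 25 weeks, and both genes overlapped at both ages.

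**Figure D3:**
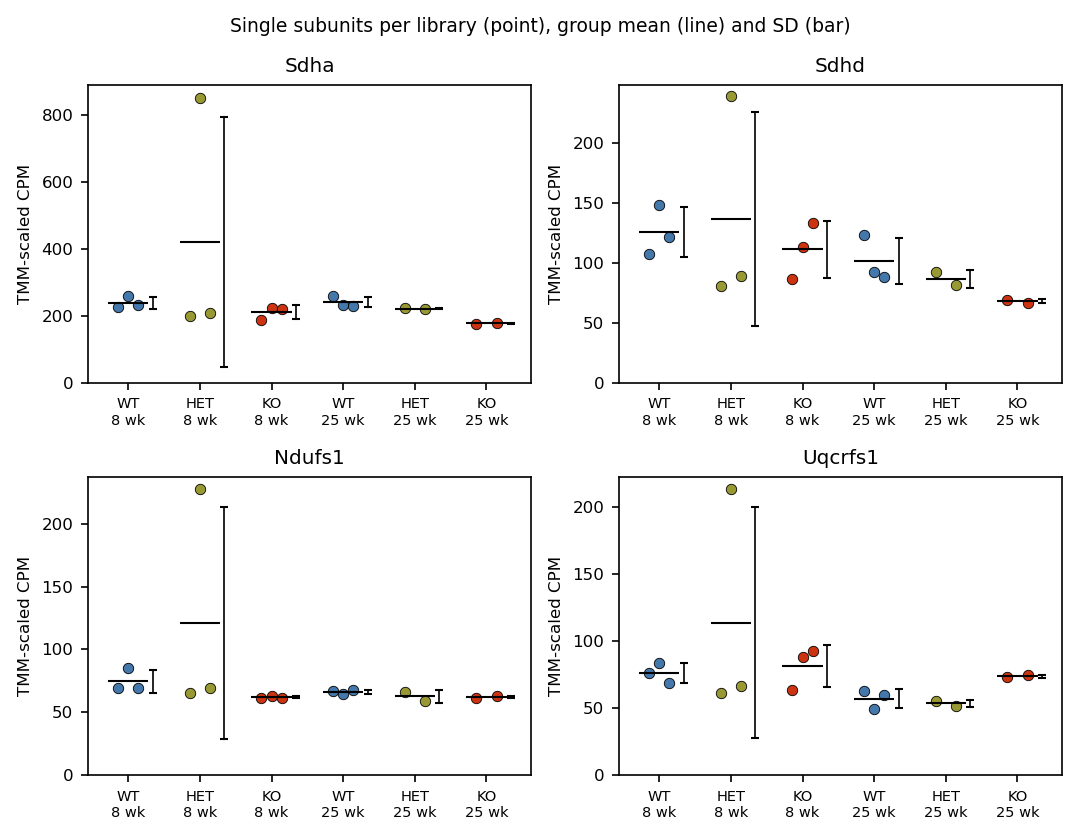
TMM-scaled CPM (y axis, from 0) of Sdha, Sdhd, Ndufs1 and Uqcrfs1 in each library (points), with the group mean (line) and SD (bar). At 25 weeks both βEedKO (KO) points lie below all wild-type (WT) points for the first 3 genes and above them for Uqcrfs1, on this scale and not by library size alone, and heterozygous (HET) replicate 2 at 8 weeks lies far above all others in each panel.

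Counted at one age, the groups did not overlap for 2 subunits at 8 weeks, both lower in βEedKO (4.86% of all genes were lower in this way and 6.54% higher). At 25 weeks they did not overlap for 6 subunits. Of these 5 were lower (Ndufa10, Ndufs1, Ndufs5, Sdha and Sdhd) and 1 was higher, against 15.9% and 24.7% of all genes. The one higher subunit was Uqcrfs1, the Rieske iron-sulfur protein of complex III, with 62.4, 49.0 and 59.4 CPM in wild type and 73.0 and 74.4 CPM in βEedKO. Its log2 fold change was 0.32 with an SE of 0.22 (adjusted p = 0.479, edgeR). By library size alone no subunit was lower without overlap at either age (0.963% of all genes at 8 weeks and 4.82% at 25 weeks). The groups then did not overlap for 12 higher subunits at 8 weeks (12.4% of all genes) and for 3 at 25 weeks (21.4%), which were Ndufa13, Uqcrq and Cox4i1.

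The lowest complex I value at 25 weeks was that of Ndufv3, an accessory subunit of the NADH-oxidising module, with 84.2, 50.6 and 54.4 CPM in wild type against 51.7 and 39.0 CPM (log2 fold change -0.52, SE 0.29). The highest was that of Ndufa13, also known as GRIM-19, with 42.5, 29.1 and 37.2 CPM against 57.2 and 36.5 CPM (0.32, SE 0.28). In complex III Uqcrb had 84.4, 36.4 and 36.2 CPM against 45.6 and 33.3 CPM (-0.45, SE 0.42). In complex IV Cox6c had 123.8, 52.5 and 54.3 CPM against 75.2 and 56.8 CPM (-0.27, SE 0.38), and Cox4i1 had 114.0, 95.4 and 106.1 CPM against 159.2 and 95.3 CPM (0.23, SE 0.28). For Ndufv3, Uqcrb and Cox6c wild-type replicate 2, the shallowest library, was the high one, and the log2 fold changes without it were -0.26, 0.064 and 0.25. For Ndufa13 and Cox4i1 βEedKO replicate 2 was the high one, and without it they were -0.065 and -0.22. The other complex I subunits lay between -0.46 (Ndufs5) and 0.27 (Ndufa8).

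The βEedKO effect did not differ between the ages for any subunit by the test of the difference itself (0 of 47 in edgeR, against 0.198% of all genes). An unadjusted p under 0.05 was found for 0 subunits and 7.76% of all genes. DESeq2 called 0 subunits and 340 of 18685 genes. The difference, 25 weeks minus 8 weeks, was below 0 for 35 subunits, with a median of -0.17, which was -0.47 without βEedKO replicate 2 and 0.12 without wild-type replicate 2 at 25 weeks. The lowest interval bound was -1.98, for Ndufa12. The interval of the difference stayed within 2-fold for 15 of the 47.

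Between the ages, 0 of 47 subunits passed in wild type (0% of all genes were called in edgeR). An unadjusted p under 0.05 was found for 0 subunits and 10.2% of all genes. DESeq2 called 0 subunits and 139 of 18685 genes. The median log2 fold change, 25 over 8 weeks, was -0.10, with 35 values below 0, and it was -0.38 without wild-type replicate 2 and 0.0067 without wild-type replicate 3 at 25 weeks. In βEedKO 0 of 47 passed as well (1.5% of all genes were called in edgeR), and DESeq2 called 0 subunits and 960 of 18685 genes. There 45 of the 47 values were below 0, all 32 of complex I among them, with a median of -0.28 against 0.0065 over all genes. One of them, Sdhd, had an unadjusted p under 0.05 (log2 fold change -0.76, SE 0.27, adjusted p = 0.230, edgeR), from 86.5, 113.4 and 133.0 CPM at 8 weeks to the 68.9 and 66.6 CPM at 25 weeks. Over all genes 14.1% had such a p. The median of this comparison ranged from -0.62 without βEedKO replicate 2 at 25 weeks to -0.044 without βEedKO replicate 3. The comparisons between the ages share libraries with those between the genotypes.

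The largest departure of the subunits in the series was in a single library. In heterozygous replicate 2 at 8 weeks the 47 subunits summed to 7379 CPM, against 2155 and 2482 CPM in the other heterozygous libraries of that age and 1965 to 3271 CPM over all 15 other libraries. They took 0.726% of its counts, with 166329 reads. In this library 46 of the 47 subunits were above their level in every other library, which held for 8.95% of all genes tested. Ndufa11 was the exception, with 55.5 CPM against 57.8 CPM in βEedKO replicate 5 at 8 weeks. With 1 library no test was made.

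The subunits were not raised alike in it. Relative to the mean of heterozygous replicates 1 and 3, the median ratio was 2.32 for complex I, 3.34 for complex III, 3.49 for complex II and 3.85 for complex IV, against 0.988 over 18279 genes. Cox5a, a subunit of complex IV, stood highest with 165.6 CPM against a mean of 23.5 CPM, a ratio of 7.04. Ndufa4 followed with 253.3 CPM and a ratio of 6.70, and Ndufa10 of complex I with 211.0 CPM and a ratio of 5.09. Sdha had 852.1 CPM, a ratio of 4.16. The lowest ratios were those of Ndufa11 (1.26), Ndufa7 (1.51) and Ndufb2 (1.70).

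**Figure D4:**
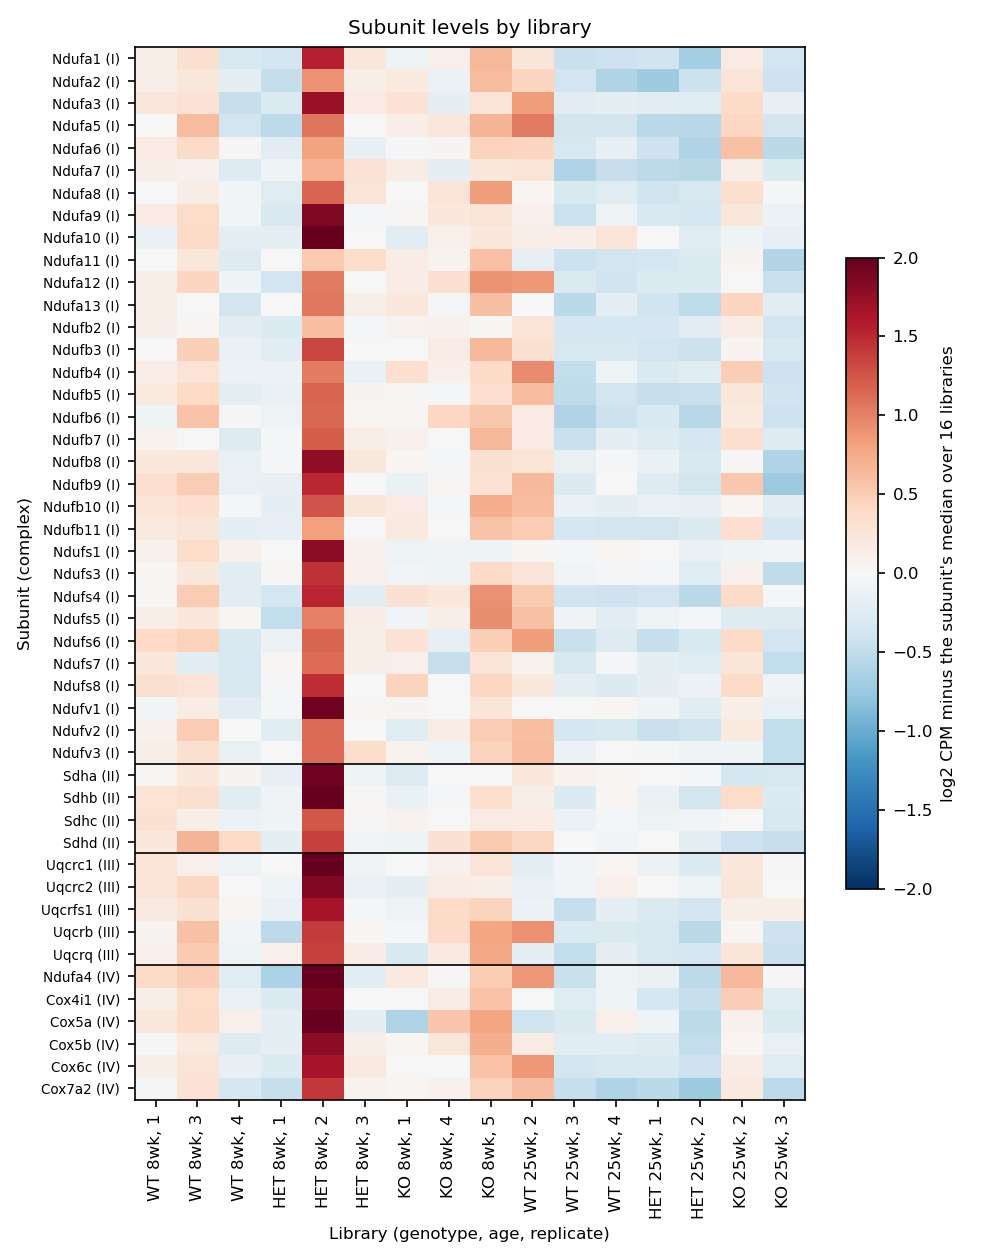
Log2 CPM of each of 47 subunits (rows, with the complex in brackets) minus its median over 16 libraries, by library (columns, with genotype, age and replicate). Red is higher and blue lower than the median, and the scale is cut at 2 on either side. Heterozygous (HET) replicate 2 at 8 weeks is red throughout, and the other columns stay mostly within 1 of the median.

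The same library held genes of brown fat and skeletal muscle. These marker lists were added after the values were seen. Ucp1, the uncoupling protein of brown fat, had 861.9 CPM in it, 29.5 to 45.7 CPM in 4 other libraries (wild-type replicate 3 at 8 weeks, wild-type replicates 3 and 4 and heterozygous replicate 1 at 25 weeks) and at most 5.19 CPM in the remaining 11. The 8 fat markers summed to 4145 CPM in it and to at most 276.7 CPM elsewhere, and the 8 skeletal muscle markers to 1761 CPM and at most 83.0 CPM. Among the subunit forms that heart, muscle and brown fat use in complex IV, Cox8b had 224.0 CPM and Cox7a1 114.9 CPM, against at most 10.5 and 7.04 CPM elsewhere. Cox6a2 was raised far less, with 35.1 CPM against at most 25.6 CPM elsewhere. The tissue-specific forms Ndufa4l2, Cox6b2 and Cox4i2 had 3.86, 1.69 and 1.64 CPM, within the range of the other libraries. Its β cell markers summed to 170400 CPM, within the range of the other libraries. The part of this tissue signal in the subunit levels was not tested.

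**Figure D5:**
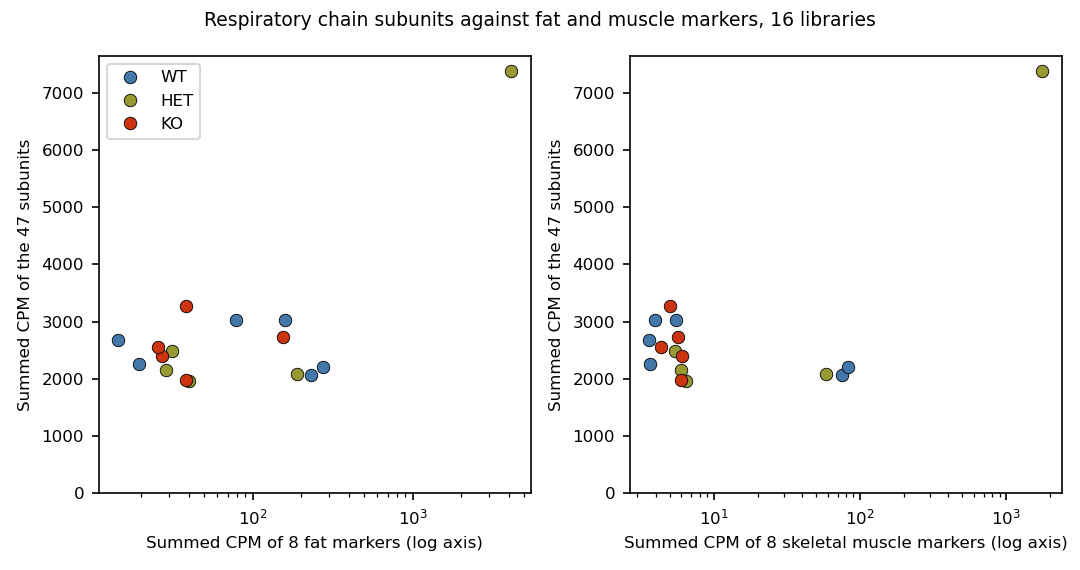
Summed CPM of the 47 subunits (y axis, from 0) against the summed CPM of 8 fat markers (left) and 8 skeletal muscle markers (right) (the 2 x axes, log scale), in 16 libraries coloured by genotype. Heterozygous (HET) replicate 2 at 8 weeks lies apart at 7379 CPM, and the other 15 libraries lie between 1965 and 3271 CPM.

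Heterozygous and wild-type islets were compared in a fit of all 16 libraries. At 8 weeks 0 of 47 subunits passed (0% of all genes were called in edgeR). DESeq2 called 0 of 47 subunits and 407 of 18828 genes. An unadjusted p under 0.05 was found for 4 subunits, Ndufa10, Ndufv1, Uqcrc1 and Cox5b, and for 14.6% of all genes. All 47 values were above 0, with a median log2 fold change of 0.49. Without heterozygous replicate 2 the median was -0.17 and 39 of the 47 values were below 0, again with 0 called (0% of all genes). An unadjusted p under 0.05 was then found for 1 subunit, Sdhd, and for 1815 of 18729 genes. At 25 weeks 0 of 47 passed (0% of all genes). An unadjusted p under 0.05 was found for 0 subunits and 1.1% of all genes, and DESeq2 called 0 subunits and 3 of 18828 genes. There 46 of 47 values were below 0, with a median of -0.26, and Ndufa5 was lowest at -0.82 (SE 0.53). The 2 heterozygous libraries summed to 2088 and 1965 CPM over the subunits, beside 2076, 2214 and 3036 CPM in wild type, so that the shallow wild-type replicate 2 was the high one. Without it the median was -0.068.

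Other genes of the same pathway were followed from lists of fixed membership. Of 13 further nuclear subunits of the chain 0 passed at either age, with a median log2 fold change of 0.19 at 8 weeks and -0.073 at 25 weeks. Their farthest values at 25 weeks were those of Ndufc1 (-0.62), Cox8a (-0.45) and Cox7c (0.38). Of 15 ATP synthase subunits 0 passed at either age, with medians of 0.18 and -0.016, and Atp5g1 (0.43), Atp5o (0.35) and Atp5k (-0.25) lay farthest from 0 at 25 weeks. The 13 genes encoded in mitochondrial DNA summed to 18860 and 13870 CPM in βEedKO and to 37850, 20640 and 22640 CPM in wild type at 25 weeks, so that the βEedKO libraries were the lowest. By library size alone they had 14320 and 20740 CPM against 37370, 23140 and 19510 CPM, and replicate 3 was no longer below wild type. None of the 13 passed in edgeR, and 12 of the 13 values were below 0 at each age, with medians of -0.27 at 8 weeks and -0.84 at 25 weeks. Those farthest from 0 were mt-Co3 (-2.59, SE 1.52), mt-Nd6 (-1.40, SE 0.50) and mt-Nd2 (-1.20, SE 0.48). However, mt-Co3 had 35.5 and 22.7 CPM in wild-type replicate 3 of each age and at most 4.66 CPM elsewhere. Levels were also low for mt-Co2 (0.758 to 9.18 CPM), mt-Nd4l (1.28 to 8.92 CPM) and mt-Nd3 (3.79 to 32.7 CPM). By contrast, mt-Co1 had 4690 to 20560 CPM. The genes with low levels enter the medians and the count of values below 0 like the others. Copies elsewhere in the genome were not searched for the 13 genes.

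Lrpprc and Pcx were among the pathway genes outside the chain that were called lower in βEedKO at 25 weeks, when 6.6% of all genes were called in either direction. Lrpprc, a protein that keeps mitochondrial mRNAs stable, had 72.8, 79.0 and 73.8 CPM in wild type and 41.4 and 40.3 CPM in βEedKO, a log2 fold change of -0.94 with an SE of 0.17 (adjusted p = 0.0103, edgeR). It was the only one called of the 40 assembly and expression factors that passed the filter (of 42), whose median was -0.14. Uqcc2 (-0.95, SE 0.32) and Sdhaf1 (-0.94, SE 0.56), assembly factors of complexes III and II, lay as far from 0 and did not pass. Of the 17 genes of the tricarboxylic acid cycle and its supply 2 were called (against 6.6% of all genes), both lower, and the median was -0.27. Pcx, pyruvate carboxylase, had 119.5, 169.8 and 167.7 CPM in wild type and 39.6 and 15.2 CPM in βEedKO, a log2 fold change of -2.52 with an SE of 0.41 (adjusted p = 0.00541, edgeR). Fh1, fumarase, had a log2 fold change of -0.59 (SE 0.52) and did not pass. At 8 weeks 0 genes of these 2 lists passed, and the medians were -0.016 and -0.21.

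None of 12 regulators of mitochondrial biogenesis passed at either age, with medians of -0.16 and -0.088. Ppargc1a, the coactivator PGC-1α, had 4.14, 6.85 and 6.89 CPM in wild type and 5.40 and 36.9 CPM in βEedKO at 25 weeks, so that 1 library set its log2 fold change of 1.75 (SE 0.76, adjusted p = 0.227, edgeR). Its relative Ppargc1b had -0.64 (SE 0.76) and Esrra, a nuclear receptor, 0.47 (SE 0.32). Of the 7 tissue-specific subunit forms 6 passed the filter and 0 were called. Cox6a2, the heart and muscle form of a complex IV subunit, had 20.1, 8.13 and 7.58 CPM in wild type and 0.761 and 2.02 CPM in βEedKO at 25 weeks, a log2 fold change of -3.10 with an SE of 0.83 (adjusted p = 0.0539, edgeR). At 8 weeks it had 22.1, 11.5 and 4.45 CPM against 11.3, 3.61 and 4.50 CPM, and the groups overlapped. Cox8b had 0.436, 8.20 and 10.5 CPM against 0.228 and 0.0807 CPM at 25 weeks (-5.48, SE 2.41). It was high in the wild-type libraries with fat and muscle markers. At 8 weeks it had 5.52 CPM in wild-type replicate 3, which held Ucp1. Cox6b2 had at most 1.85 CPM in any library (2.35, SE 0.79).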

How the data were processed

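Bulk RNA-seq libraries of whole islets were analysed: 16 in 6 groups of genotype and age. The authors deposited a table of counts per gene that were not normalized, made with TopHat (TopHat2 2.0.13 in the submitters' processing notes) on GRCm38 and featureCounts (Subread 1.5.0-p1) on Gencode M9 gene models. Count columns not used: 0. Per the file headers and methods, the deposited chromatin states are EpicSeg letters in 200 bp bins and hold no level.

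Symbols, positions and exon lengths came from GENCODE annotation of the same build, and 47310 of 47937 counted identifiers matched. Counts were fitted with edgeR 4.0.16 under R 4.3.3, with DESeq2 1.42.0 as an alternative. The steps were filterByExpr by group, TMM factors, glmQLFit and glmQLFTest, on 18685 genes where only the 11 libraries without heterozygous ones entered and on 18828 genes where all 16 did. SE is the absolute log2 fold change over the square root of F, and 95% intervals use the test's degrees of freedom. The common biological coefficient of variation was 0.456 and 0.424. CPM per library use the 16-library TMM factors (library size alone as an alternative chosen after seeing the data, as was the transcript length), and SDs of log2 CPM use a pseudocount of 0.5. Scripts were tested on simulated counts. Total counts of 4645393 to 22925359 set the counting precision. Replicates are separate libraries of 1 or 2 animals or a pool. Replicates differed beyond sampling noise (chi-square over its degrees of freedom, 31.0 to 592). Transcript copies were searched with blastn, and promoters came from RefSeq tables.

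The members and lists were chosen with earlier results of these data known. The subunits named are those with an adjusted p under 0.05 against wild type (none were), the highest and lowest log2 fold change of each complex at 25 weeks, the 2 farthest from 0 at 8 weeks, and the highest RPKM of each complex. For other lists the 3 farthest from 0 at 25 weeks are given, and 1 gene of these lists is not reported here. Alternatives in scaling, filter, test, block, control and libraries are in the closing section.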

Additional observations from a re-analysis of the deposited data

How the results depend on the processing

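The count of subunits called was 0 under each alternative run. All 7 comparisons were run with library size alone, median-of-ratios or upper-quartile factors, TMM factors without hormone and mitochondrial genes, no filter, DESeq2, the replicate block and that block with library size alone, and with libraries of their groups left out in turn (lowest 0, highest 0). All 16 libraries in 1 fit applied to the 5 comparisons without heterozygous groups, and wild type and heterozygous pooled as control to βEedKO against wild type at each age. Leaving out the 5 libraries with Ucp1 above 10 CPM, chosen after seeing the data, also gave 0 in those 5 comparisons, but moved the median log2 fold change at 25 weeks from -0.059 to -0.39, with 1 wild-type library left, which is assumed to vary like the others. With single libraries left out that median ranged from -0.38 to 0.22, and at 8 weeks from -0.072 to 0.22. Library size alone moved the median of all genes by over 0.1, to 0.20 at 8 weeks and 0.27 at 25 weeks, and the median of the subunits to 0.30 and 0.12. The number called over all genes differed between the alternatives. For βEedKO against wild type at 8 weeks it was 0 of 18685 with the replicate block and 503 of 18828 with the pooled control. At 25 weeks it was 884 of 18685 with library size alone and 2649 of 18828 with the pooled control. A count of 0 subunits says little where few genes were called.

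Of the named subunits at 25 weeks, Ndufb11 (0.0073) turned to -0.0027 with TMM factors without hormone and mitochondrial genes and to -0.51 without the 5 libraries, and Sdhb (0.061) to -0.087 without them. Ndufs1 turned to 0.11 with library size alone. At 8 weeks Sdha turned to 0.012 with library size alone, and Cox5b to -0.13 with the pooled control. With single libraries left out, the range was -0.065 to 0.62 for Ndufa13, -0.39 to 0.35 for Ndufb11, -0.32 to 0.35 for Sdhb, -0.72 to 0.064 for Uqcrb, -0.22 to 0.55 for Cox4i1 and -0.51 to 0.25 for Cox6c. It was -0.76 to -0.26 for Ndufv3, -0.72 to -0.47 for Sdhd and -0.53 to -0.44 for Sdha at 25 weeks. The cause of these changes was not tested.

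Replicate numbers are shared by only 2 wild-type and βEedKO libraries at each age and are not said to mark litters or days. Same-numbered libraries deviated together (correlation 0.53 and 0.25 at 8 weeks, 0.24 and 0.35 at 25 weeks). However, at 8 weeks wild-type replicate 4 correlated better with βEedKO replicate 5 (0.38), which also correlated with wild-type replicate 3 (0.53). With 2 βEedKO libraries at 25 weeks the deviations are mirror images, such as 0.24 and -0.24 for wild-type replicate 2. The numbers were therefore not taken as pairs. The replicate block called 0 subunits and gave a median of 0.050 at 8 weeks and -0.13 at 25 weeks. For heterozygous against wild type the block turned the median from 0.49 to -0.28 at 8 weeks, where replicate 2 has no wild-type partner. At 25 weeks it moved the median from -0.26 to -0.60, with 23 subunits at an unadjusted p under 0.05 (0 without the block). In that fit 0 of 18828 genes were called. The share of all genes at that unadjusted p was not counted, so the 23 cannot be read as a result about the subunits. Heterozygous replicate 1 has no partner at 25 weeks, so the estimate rested on heterozygous replicate 2, whose wild-type partner is the shallow replicate 2. With the block Ndufb11 was -0.13 at 25 weeks. With the block and library size alone, Ndufb11 was -0.048 at 25 weeks, and Sdha 0.094 and Ndufs1 0.086 at 8 weeks. With 2 or 3 libraries a group the intervals were wide, and the absence of a call does not exclude differences that lie within them.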

Other observations

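Traces of the same fat and muscle genes were found in 3 libraries at 25 weeks, described here by their share. Relative to heterozygous replicate 2 at 8 weeks, the 8 skeletal muscle markers stood at 3.42% to 5.55% (median 4.04%) in wild-type replicate 3, at 3.16% to 6.41% (median 4.51%) in wild-type replicate 4 and at 2.06% to 4.15% (median 3.24%) in heterozygous replicate 1. For Ucp1 the same values were 4.02%, 4.29% and 3.42%. Wild-type replicate 3 at 8 weeks differed from this pattern, with 5.30% for Ucp1 and a median of 0.0815% for the muscle markers. The cause was not tested. The subunits summed to 2076, 2214 and 2088 CPM in the 3 libraries at 25 weeks.

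Across the 47 subunits, the log2 fold change of βEedKO over wild type at 8 weeks was higher for those with a shorter merged exon length (Spearman's rho -0.46, lengths from 419 to 8086 bp). At 25 weeks rho was -0.089, and in the other comparisons it ran from 0.15 to 0.37. Genes are not independent replicates, they share the libraries, and no test was made.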
